A study of Sus scrofa with 2 samples.

Results

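Fragments of 5.8S rRNA were read in small RNA libraries of pig oocytes. They were found by sequence alone, as reads of 18 to 44 nt that matched the 157-nt 5.8S rRNA exactly on the sense strand. The libraries together held 1166705 distinct sequences, 689709 in the Dicer KD library and 720572 in the control library. Of these, 704 were such fragments, with 557 in the Dicer KD library and 603 in the control library, and 456 were seen in both. The fragments seen in both held 99.7% of the 5.8S reads in the Dicer KD library and 99.3% in the control library. The Dicer KD oocytes had received siRNA against Dicer, the ribonuclease that cuts miRNA and siRNA precursors, as germinal vesicle oocytes, and were then matured in vitro for 42 h. The control oocytes were metaphase II oocytes matured in vitro for the same time, and the labels do not say what they received in place of the siRNA. Neither the number of oocytes nor that of animals in a library was given in the sources used here. The Dicer transcript and the defining mRNAs of oocytes are not measured by small RNA libraries, so neither the knockdown nor the cell type could be checked here. With 1 library per group no test between the groups was possible, and each ratio below compares these libraries, as Dicer KD over control. All intervals are at 95% and cover the error of counting reads alone, without differences between replicate libraries. Amplified reads that carry no molecular barcode cannot be counted as separate molecules, so the intervals may be too narrow for molecules.

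The 5.8S rRNA is the smallest RNA made as part of the large ribosomal precursor, in which it lies between the internal transcribed spacers ITS1 and ITS2. In the finished large ribosomal subunit it pairs with the 28S rRNA near both of its own ends. In yeast and in vertebrates it is known in a short form and in a longer form whose 5′ end lies a few bases upstream. Oocytes build up a store of ribosomes during growth, and pieces of rRNA are a regular part of small RNA libraries.

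The sequence below is the 5.8S rRNA against which all positions are counted, from 1 at its 5′ end. It was joined from overlapping reads of both libraries, and capitals mark the most abundant fragment of each of the 3 groups described further on.

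5.8S rRNA: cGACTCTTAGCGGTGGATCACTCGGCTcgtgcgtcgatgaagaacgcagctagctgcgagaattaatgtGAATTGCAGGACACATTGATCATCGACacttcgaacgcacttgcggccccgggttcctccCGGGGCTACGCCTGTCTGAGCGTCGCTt

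The most abundant fragments of the 2 libraries together follow, as the few sequences that held most reads. In those from the 5′ end of the RNA, capitals mark the bases after position 25, where the forms differ. In those from the 3′ end, capitals mark the 18 nt from position 139 that these forms share.

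Positions 2 to 27: gactcttagcggtggatcactcggCT

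Positions 2 to 26: gactcttagcggtggatcactcggC

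Positions 2 to 28: gactcttagcggtggatcactcggCTC

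Positions 2 to 25: gactcttagcggtggatcactcgg

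Positions 3 to 27: actcttagcggtggatcactcggCT

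Positions 70 to 96: gaattgcaggacacattgatcatcgac

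Positions 126 to 156: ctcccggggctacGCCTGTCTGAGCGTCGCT

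Positions 130 to 156: cggggctacGCCTGTCTGAGCGTCGCT

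Positions 131 to 156: ggggctacGCCTGTCTGAGCGTCGCT

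Positions 139 to 156: GCCTGTCTGAGCGTCGCT

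The fragments were higher in the Dicer KD library as a whole, but the excess lay at the 5′ end of the RNA. The 3′ end, summed over its fragments, went the other way. In all, 5.8S fragments took 78896 of 11982925 reads in the Dicer KD library and 64179 of 11836160 in the control library. That was 6584 and 5422 RPM (reads per 1000000 reads of the whole library), a ratio of 1.21 (exact conditional interval 1.20 to 1.23). Fragments that began within 3 nt of position 1 stood at 4582 RPM in the Dicer KD library and 3293 RPM in the control library, a ratio of 1.39 (1.37 to 1.41). Fragments that ended within 3 nt of position 157 stood at 856 and 1023 RPM, a ratio of 0.837 (0.815 to 0.859). Much of that deficit lay in 1 fragment, from position 130 to 156, with 2324 and 4080 reads. The fragment from position 131 to 156 was higher, with 3037 and 2239 reads. The ratio of the 3′ end was not computed without the fragment from position 130. Internal fragments, which reached neither end, stood at 1146 and 1106 RPM, a ratio of 1.04 (1.01 to 1.06).

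The makeup of the 5.8S reads shifted accordingly. Reads of the 5′ end made up 69.6% of them in the Dicer KD library (exact binomial interval 69.3 to 69.9%) and 60.7% in the control library (60.3 to 61.1%). Reads of the 3′ end made up 13.0% (12.8 to 13.2%) and 18.9% (18.6 to 19.2%), and internal reads 17.4% and 20.4%. When the RNA was cut into 3 parts of equal length by the midpoint of each read, the ratios were 1.38 (1.36 to 1.40) for the 5′-most part, 1.03 (1.003 to 1.06) for the middle and 0.843 (0.822 to 0.866) for the 3′-most part. The middle part was lower in the Dicer KD library, with a log2 ratio of -0.097 in place of 0.042, when counts were taken relative to reads that do not begin with T. Its interval on the log2 scale took in 0 when sequences seen once were left out, at 0.037 (-0.00080 to 0.074), and when reads with unmatched 3′ bases were added, at 0.034 (-0.0013 to 0.070).

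Reads with like features that were not from 5.8S rRNA were also unequal between the libraries. Reads that shared no run of 16 bases with the 5.8S rRNA, were 25 to 27 nt long and began with G, as most 5′-end fragments do, had a ratio of 1.13 (1.12 to 1.14). Such reads that began with C, the first base of the leading 3′-end fragment, had a ratio of 1.24 (1.24 to 1.25), above that of all 5.8S fragments and opposite in direction to the 3′ end. Those of that length with 55 to 65% GC, a range that holds the mean of the 5′-end fragments, 58.7% and 58.8%, had a ratio of 1.05 (1.04 to 1.05). Those with 65 to 80% GC, a range that holds the mean of the 3′-end fragments, 69.04% and 68.9%, had a ratio of 0.961 (0.945 to 0.976). The part of base composition in the difference between the ends was not tested.

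The antisense strand of the 5.8S rRNA served as a control for the match. It held 5 reads in the Dicer KD library and 1 read in the control library, of 3 distinct sequences, against 704 distinct sense sequences. The antisense share of 5.8S reads was 0.00634% in the Dicer KD library (0.00206 to 0.0148%) and 0.00156% in the control library (3.94e-05 to 0.00868%). The ratio of antisense reads, 4.94, had an interval of 0.553 to 234, and at so few reads no difference could be seen. The most abundant antisense sequence is shown here, with 3 reads in the Dicer KD library and 0 reads in the control library.

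Antisense: ttcgaagtgtcgatgatcaatgt

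5′ ends were used very unevenly. The numbering was set from these reads so that the most used 5′ end is position 2. Position 2, a G, was the first base of 63.5% of 5.8S reads in the Dicer KD library and 55.5% in the control library, at 4182 and 3010 RPM, a ratio of 1.39 (1.37 to 1.41). Its neighbours were far lower, with 1880 and 1386 reads at position 1 and 2018 and 1364 reads at position 3. Next over both libraries came position 130, at 203 and 364 RPM, then position 70, at 282 and 211 RPM, and position 131, at 259 and 193 RPM. The 10 most used positions held 85.3% of the 5.8S reads in the Dicer KD library and 81.7% in the control library, out of 108 and 109 positions at which any read began.

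3′ ends fell mostly on 2 short stretches. Position 27 ended 27.2% of 5.8S reads in the Dicer KD library and 22.8% in the control library, position 26 ended 22.6% and 20.9%, and position 28 ended 14.7% and 12.7%. Position 156, a T, 1 base before the last base of the sequence used, ended 12.5% and 18.2%. The last base itself, position 157, was reached by 103 and 97 reads. A read with a T of other origin after position 156 would also match there, so the 2 kinds cannot be told apart. RefSeq lists the pig 5.8S gene RN5-8S with a length of 156 nt.

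Between the main fragments the RNA was read much less. In 2 stretches each base was covered by fewer than 1000 reads in each library. From position 31 to 57 the coverage was 209 to 749 reads in the Dicer KD library and 420 to 970 in the control library, and from position 108 to 125 it was 51 to 841 and 105 to 965. The peak at the 5′ end reached 55957 and 39842 reads, the internal peak 10098 and 9271, and the 3′-end peak 10337 and 12174. All 157 positions were covered. Of the 3429 possible fragments of 18 to 44 nt, 20.5% were seen.

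The 5′-end fragments were a ladder of forms that shared 1 start and differed by single bases at the 3′ end. The form from position 2 to 27 had 18311 reads in the Dicer KD library and 12610 in the control library, a ratio of 1.43 (1.40 to 1.47). The form to position 26 had 16691 and 12497 reads, a ratio of 1.32 (1.29 to 1.35), and the form to position 28 had 11017 and 7680, a ratio of 1.42 (1.38 to 1.46). These 3 sequences alone held 58.3% of 5.8S reads in the Dicer KD library (58.0 to 58.7%) and 51.1% in the control library (50.7 to 51.5%).

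Less abundant forms from the same start did not all move alike. The form to position 25 had 1651 and 731 reads, a ratio of 2.23 (2.04 to 2.44). The form to position 29 was lower in the Dicer KD library, with 363 and 471 reads and a ratio of 0.761 (0.662 to 0.875), although the form to position 30 was higher, with 837 and 636 reads and a ratio of 1.30 (1.17 to 1.44). The form to position 23 had 345 and 340 reads, and their ratio of 1.002 (0.860 to 1.17) left no difference that could be seen with these counts. The fragment that began 1 base later, from position 3 to 27, had 1063 and 632 reads and a ratio of 1.66 (1.504 to 1.84).

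The 3′-end fragments were the mirror image, with 1 shared end at position 156 and a spread of starts. The most abundant forms, which began at the neighbouring bases 130 and 131, went in opposite directions. The fragment from position 130 had 2324 reads in the Dicer KD library and 4080 in the control library, a ratio of 0.563 (0.534 to 0.592). That from position 131, 1 base shorter, had 3037 and 2239 reads, a ratio of 1.34 (1.27 to 1.42). Of the reads that began at either base, 43.99% began at position 130 in the Dicer KD library (42.7 to 45.3%) and 65.3% in the control library (64.1 to 66.5%). Added together they were lower in the Dicer KD library, at 462 and 557 RPM, a ratio of 0.830 (0.800 to 0.860).

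Shorter and longer forms of the 3′ end were divided too. The 18-nt fragment from position 139, at the lower limit of the lengths listed, had 1366 and 2043 reads, a ratio of 0.660 (0.616 to 0.708). Its neighbour from position 138 had 756 and 727 reads, a ratio of 1.03 (0.926 to 1.14). The 31-nt fragment from position 126 had 946 and 677 reads, a ratio of 1.38 (1.25 to 1.53), and the 21-nt fragment from position 136 had 253 and 477, a ratio of 0.524 (0.448 to 0.611). Reads at position 139 were 64.1% of those that began at position 138 or 139 in the Dicer KD library (62.1 to 66.2%) and 73.8% in the control library (72.1 to 75.4%).

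Internal fragments came mainly from starts between positions 69 and 82, which held 69.5% of internal reads in the Dicer KD library and 65.6% in the control library. Together these starts had a ratio of 1.10 (1.07 to 1.13). The most abundant internal fragment, from position 70 to 96, had 1959 and 1142 reads and a ratio of 1.69 (1.57 to 1.82). The ratio of all internal reads was not computed without it. Another form from position 70, to position 93, had 503 and 446 reads, a ratio of 1.11 (0.979 to 1.27). Starts from position 34 to 56 were lower in the Dicer KD library, at 60.8 and 77.9 RPM, a ratio of 0.780 (0.707 to 0.860). Those from position 83 to 100 were also lower, with a ratio of 0.855 (0.780 to 0.938), while the ratio of those from position 57 to 68 was 0.953 (0.883 to 1.03).

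At 1 bond inside the RNA many reads lay on both sides. In the Dicer KD library 1099 reads ended at position 81, a C, and 1068 began at position 82, an A, and in the control library 1023 ended and 926 began there. At the bond next in order, between positions 82 and 83, the side with fewer reads had 120 in the Dicer KD library and 121 in the control library. Reads from position 58 to 81, a fragment that ends at the main bond, numbered 677 and 635, a ratio of 1.05 (0.944 to 1.18). Those from position 82 to 103, a fragment that begins there, numbered 482 and 446, a ratio of 1.07 (0.937 to 1.22). For both fragments the difference between the libraries was within counting error. All reads that ended at position 81 had a ratio of 1.06 (0.974 to 1.16). All reads that began at position 82 had a ratio of 1.14 (1.04 to 1.25), which was outside counting error.

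At the main 3′ ends, positions 27 and 26, few such partners were read among the lengths listed. At position 27, 21422 reads ended in the Dicer KD library and 14644 in the control library, while 11 and 5 reads began at position 28. At position 26, 17830 and 13400 reads ended, while 37 and 36 began at position 27. Downstream pieces shorter or longer than the lengths listed could not be seen, so whether they were present was not tested.

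The fragments differed in length and first base from the other small RNAs of these libraries. Their median length was 26 nt in both libraries, and that of all other reads 24 nt. Reads of 25 to 27 nt were 74.4% of 5.8S reads in the Dicer KD library (74.1 to 74.7%) and 70.4% in the control library (70.05 to 70.8%), against 26.99% and 26.3% of other reads. The first base was G in 77.3% and 71.3% of 5.8S reads but in 4.50% and 3.68% of other reads. It was T in 4.67% and 6.44% of 5.8S reads, and in 85.0% and 86.3% of other reads.

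Length followed the position in the RNA. Fragments of 25, 26 and 27 nt made up 32.6%, 34.7% and 21.03% of the 5′-end reads in the Dicer KD library and 33.9%, 33.96% and 20.8% in the control library. Internal fragments were shorter, with a median of 24 nt, and their most used length was 23 nt, with 23.997% and 24.3% of internal reads. Among 3′-end reads the most used length was 26 nt in the Dicer KD library, at 30.5%, and 27 nt in the control library, at 33.9%. Reads of 18 to 20 nt were lower in the Dicer KD library, at 244 and 324 RPM, a ratio of 0.752 (0.717 to 0.790). Longer reads, of 33 to 44 nt, were rare, with 38 and 147 reads and a ratio of 0.255 (0.174 to 0.367), and 7 and 121 of these were 1 sequence, from position 124 to 156.

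Few single fragments differed by 2-fold or more. Of the 704 fragments, 89 passed a minimum of 100 reads summed over the libraries, and the other 615 held 4.26% of 5.8S reads in the Dicer KD library and 6.09% in the control library. Of these 89, 3 were at least 2-fold higher in the Dicer KD library (3.37%) and 5 at least 2-fold lower (5.62%). Among all 13658 sequences with as many reads, 5.71% were at least 2-fold higher and 5.68% at least 2-fold lower. At this minimum of reads, the share of fragments past 2-fold was thus near or below the background. The median log2 ratio was 0.42 over the 22 fragments of the 5′ end, 0.02 over 52 internal ones and -0.31 over 15 of the 3′ end, beside -0.06 over all 13658 sequences. Ratios were above 1 for 19 of the 22 fragments of the 5′ end and for 5 of the 15 of the 3′ end. Among all 13658 sequences, 6240 had a ratio above 1. The fragments of an end are overlapping forms of the same stretch, so they are not independent of each other.

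The fragments past 2-fold are shown so that these counts can be traced to their sequences. Higher in the Dicer KD library were the form from position 2 to 25 given above and the following 2. The first had 88 reads in the Dicer KD library and 27 in the control library, a ratio of 3.22 (2.07 to 5.16). The other had 334 and 152 reads, a ratio of 2.17 (1.79 to 2.65).

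Positions 132 to 155: gggctacGCCTGTCTGAGCGTCGC

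Positions 1 to 24: cgactcttagcggtggatcactcg

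Lower in the Dicer KD library were 5 fragments. The fragment from position 22 to 50 had 0 reads in the Dicer KD library and 121 in the control library, which was at least 40.8-fold lower when 3 reads were taken as the most that a count of 0 allows, and at least 32.7-fold lower by the bound of the exact interval. The 33-nt fragment from position 124 to 156 had 7 and 121 reads and a ratio of 0.0571 (0.0225 to 0.121). The fragment from position 64 to 82 had 25 and 78 reads, which gave a ratio of 0.317 (0.193 to 0.502). The last 2 were chosen after their values were seen. The fragment from position 130 to 155 had 90 and 199 reads and a ratio of 0.447 (0.344 to 0.576), and that from position 74 to 97 had 43 and 85, a ratio of 0.4997 (0.338 to 0.729). The fragments from positions 22, 124 and 130 reached the minimum of 100 reads on their control reads alone.

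Positions 22 to 50: tcggctcgtgcgtcgatgaagaacgcagc

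Positions 124 to 156: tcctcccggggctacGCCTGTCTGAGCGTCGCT

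Positions 64 to 82: taatgtgaattgcaggaca

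Positions 130 to 155: cggggctacGCCTGTCTGAGCGTCGC

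Positions 74 to 97: tgcaggacacattgatcatcgaca

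The reads past 2-fold were thus few, scattered over all 3 groups and of low abundance but for the form from position 2 to 25.

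A further set of reads matched the 5.8S rRNA up to a point and ended in 1 to 3 bases that did not match, and nearly all of these bases were A. Such reads, which the exact match leaves out, numbered 23698 in the Dicer KD library and 17009 in the control library, a ratio of 1.38 (1.35 to 1.40). A single A made up 92.9% of these tails in the Dicer KD library and 92.5% in the control library. A single A after position 25 alone made up 81.3% and 78.7%. The most abundant of these reads had 18382 reads in the Dicer KD library and 12763 in the control library, more than any exact fragment, and a ratio of 1.42 (1.39 to 1.46). It is shown with the leading forms that carry an A after positions 26 and 104, and the added bases are in capitals. Forms with an A after position 25 and another start, and with 2 added A, lay between them in abundance and are not shown.

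A after position 25: gactcttagcggtggatcactcggA

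A after position 26: gactcttagcggtggatcactcggcA

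A after position 104: acattgatcatcgacacttcgaaA

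How often the A was found depended on where the fragment ended. Of the reads whose match ended at position 25, 91.4% carried 1 extra A in the Dicer KD library (91.1 to 91.8%) and 94.2% in the control library (93.8 to 94.6%). At position 26, 1 base further, the share was 6.23% and 6.40%, at position 27 it was 1.17% and 1.13%, and at position 28 it was 0.147% and 0.0980%. Ends at position 106 carried it in 58.9% and 57.7% of reads and ends at position 104 in 37.3% and 42.4%. At the 3′ end of the RNA, position 156, it was 0.222% and 0.171%. The median over the 23 compared ends other than position 25 was 1.17% and 1.13%. Ends followed by an A in the RNA itself were left out, since an added A cannot be told from a matched one there.

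Reads in which an A after position 25 was followed by the next matching bases of the RNA numbered 1 in each library, beside 12736 reads that matched throughout in the Dicer KD library and 9277 in the control library. Where the added A came from was not tested. These reads, and those described next, were taken up after their values had been seen.

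Other reads ran past position 1 into bases that lie upstream. They numbered 13846 in the Dicer KD library and 10194 in the control library, a ratio of 1.34 (1.31 to 1.38). Set beside the exact 5′-end fragments, they made up 20.1% of both together in the Dicer KD library (19.8 to 20.4%) and 20.7% in the control library (20.4 to 21.1%). Most of them carried 2 extra bases, 54.4% and 43.9%, or 5 extra bases, 19.8% and 29.6%. Reads with 2 extra bases were higher in the Dicer KD library, at 629 and 378 RPM, a ratio of 1.66 (1.60 to 1.73). Those with 5, summed, were lower, at 229 and 255 RPM, a ratio of 0.899 (0.853 to 0.947). Most of these were 1 form, to position 13, and longer forms with 5 extra bases were not all lower. The upstream bases, in capitals, were not checked against a pig genome.

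Extra 2, to position 27: TAcgactcttagcggtggatcactcggct

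Extra 2, to position 26: TAcgactcttagcggtggatcactcggc

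Extra 5, to position 13: ACGTAcgactcttagcgg

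Extra 2, to position 25: TAcgactcttagcggtggatcactcgg

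Extended reads shared the 3′ ends of the exact fragments in part. Those that ended at position 27 were 30.8% of them in the Dicer KD library and 24.6% in the control library, and those at position 26 were 26.3% and 23.2%. The form with 2 extra bases to position 27 had 3577 and 2082 reads, a ratio of 1.70 (1.61 to 1.79), and that to position 26 had 2360 and 1449, a ratio of 1.61 (1.51 to 1.72). The 18-nt form with 5 extra bases, to position 13, had 1637 and 2106 reads, a ratio of 0.768 (0.719 to 0.819). That with 5 extra bases to position 17 had 321 and 313 reads, a ratio of 1.01 (0.864 to 1.19). The one to position 18 had 302 and 205, a ratio of 1.46 (1.21 to 1.75). The ratio of reads with 5 extra bases was not computed without the 18-nt form.

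The extended form to position 25 differed far more than its neighbours. It had 496 reads in the Dicer KD library and 39 in the control library, a ratio of 12.6 (9.06 to 17.9). Of the extended reads that ended at position 25, 20.5% carried the extra A in the Dicer KD library (17.5 to 23.8%) and 52.3% in the control library (42.6 to 61.8%). Reads with the A numbered 135 and 58, so they too were more in the Dicer KD library, and those without it 524 and 53. Both shares were below those of the exact 5′-end fragments at the same end. At position 24 the share of extended reads with the A was 27.5% (15.9 to 41.7%) in the Dicer KD library and 17.2% (8.59 to 29.4%) in the control library.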

How the data were processed

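Adapters were ligated to small RNA of 1 Dicer KD and 1 control pig oocyte library, which were amplified and read on an Illumina sequencer, per the labels' protocols. The authors deposited raw read counts per distinct sequence of 18 to 44 nt, with its length. No normalization had been applied to the counts. The submitters' processing notes list Bowtie2, without its role. For trimming and genome build, nothing is given in the sources used here.

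The 5.8S sequence was joined from reads of both libraries that overlapped by 16 nt, starting from a read near each end that was recognised from background knowledge of this conserved RNA. Position 1 is the base before the most used 5′ end, and the length of 157 nt is 1 base more than the RefSeq entry (Sscrofa11.1), which comes without a sequence here. No fragment matched in 2 places or on both strands.

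In RPM, 1 read is worth 0.0835 in the Dicer KD library and 0.0845 in the control library. RPM have exact Poisson intervals, shares exact Clopper-Pearson intervals and ratios exact conditional intervals. There was 1 library per group, so p-values were not calculated, and single sequences were compared by a 2-fold rule at 100 reads, with a ratio of 0.5 or less as lower. Matching was tested on made-up reads, and the intervals and this rule on counts simulated with counting error alone. The simulated counts held no spread between replicate libraries or from amplification, so the rule was not tested against these. The members, lists and comparisons were chosen with earlier results of these data known. Named fragments were the 10 most abundant, the 3 of largest ratio in either direction, the leading form at the 3 most used ends of each kind and the leading antisense sequence. Others were named after their values were seen. Alternatives changed the reads that counts are scaled to, the mismatches, the lengths, the abundance of sequences and the fold rule. The tools were scipy 1.17.1, pandas 2.3.3, numpy 2.4.6 and Python 3.11.15.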

Additional observations from a re-analysis of the deposited data

How the results depend on the processing

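Main values are the log2 ratio of Dicer KD to control, 0.28 for all 5.8S reads and 0.46, 0.042 and -0.25 for the 5′-most, middle and 3′-most parts of the RNA. The others are the difference of Dicer KD minus control in the share of 5.8S reads, 8.86 percentage points for the 5′ end, -5.87 for the 3′ end and 4.19 for the 5 most abundant sequences. Leaving out single reads or reads over 32 nt moved none of these beyond the counting interval of the main value, nor did leaving the 10 most abundant sequences out of the totals move the 4 log2 ratios, the values it was run for. The interval of the middle part took in 0 without single reads, at 0.037, and with tailed reads, at 0.034. Relative to reads that do not begin with T, the log2 ratios were 0.14 in all and 0.33, -0.097 and -0.38 by part, so the middle part changed sign. With 1 mismatch the total was 0.33, the shares differed by 8.11, -5.08 and 3.65 points and the median length was 25 nt in both libraries. An added A after position 25 counts as 1 mismatch, so this setting also took in the most abundant tailed read. Without reads under 20 nt the total was 0.31, the 3′-most part -0.20 and the shares 7.87, -4.65 and 3.04 points. Without the most abundant fragment the total was 0.21, the 5′-most part 0.44, the share of the 3′ end -6.55 points and the median 25 nt in both. That fragment is of the 5′ end, and no setting left out the leading fragment of the 3′ end. With reads past position 1 the total was 0.30, and with tailed reads 0.32; both settings were added after the data were seen.

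With each distinct sequence counted once, which drops abundance, the total was -0.051, the parts -0.026, -0.094 and 0.028, and the shares 0.216, 0.202 and 0.0685 points. The total, each part and the share of the 3′ end thus changed sign. The intervals of all these values took in 0, that of the total being -0.220 to 0.117. The median was then 24 nt in both libraries, and the antisense share of both libraries was 0.258% in place of 0.00419%. The fragments past 2-fold were 3 higher and 5 lower of 89. At 1000 reads they were 1 and 0 of 16, where 4.70% and 3.24% of all sequences passed. At 20 reads they were 10 and 28 of 198, beside 10.3% and 11.8% of all sequences, and past 1.5-fold 11 and 11 of 89, beside 13.0% and 16.3%. The share lower at 20 reads was above that of all sequences, as was the share higher at 1000 reads, which was 1 fragment. With 1 library per group, differences between replicates cannot be told apart from the effect of the knockdown, and no paired or leave-one-out setting exists. The 14 sequences run under both other scalings, the 10 most abundant and those of largest ratio other than the one at 0 in the Dicer KD library, kept their direction; other named forms were not run.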
